A study of Mus musculus with 16 samples.

Results

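Aminoacyl-tRNA synthetases were examined in the quadriceps muscle of aged mice fed ursolic acid or tomatidine. The group was chosen by name and function, with earlier results of these data known. It held 20 cytosolic enzymes or enzyme subunits and 3 scaffold proteins that hold several of these enzymes together. With 16 mitochondrial enzymes, whose symbols end in 2 (Aimp2, a scaffold protein, excepted), the group came to 39 genes. A named probe was used for 36 of them (22 of 23 cytosolic and 14 of 16 mitochondrial) out of 16590 genes with a named probe, and Dars, Cars2 and Tars2 were not analysed here. Each mouse contributed 1 array. Of the 16 male C57BL/6 mice, 6 ate standard chow with 0.27% (w/w) ursolic acid, 5 ate standard chow with 0.05% (w/w) tomatidine and 5 ate standard chow alone as control. Diets started at 22 months of age and ran for 2 months, so all mice were 24 months old at harvest, and groups had been matched for body weight. The labels give no transgene or deletion for any group, and no group of young mice, so every comparison is between diets within old age. Ursolic acid is a triterpene acid of plants such as apple, and tomatidine is a steroidal alkaloid of tomato. Their doses differed, so values of both compounds are set side by side and are not a comparison at matched dose.

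Aminoacyl-tRNA synthetases join each amino acid to its own transfer RNA, the step that supplies charged tRNA to the ribosome. Mammalian cells keep separate sets for the cytosol and for the mitochondria, encoded by different nuclear genes except for the glycyl and lysyl enzymes (Gars and Kars), whose genes serve both compartments. Several cytosolic enzymes form a large multisynthetase complex around the scaffold proteins Aimp1, Aimp2 and Eef1e1, while the others work free of it. The transcription factor ATF4, which acts when amino acids are short or the endoplasmic reticulum is stressed, is known to induce many of the cytosolic synthetase genes, and in skeletal muscle ATF4 is known for a role in atrophy.

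Signals are on the log2 scale, as deposited by the authors after normalization. Array medians lay between 8.02 and 8.03 and the lowest signal of each array between 7.87 and 7.90, so a gene near 8 gave little signal above the floor of the array. Of the 36 synthetase genes, 22 had a mean log2 signal of at least 8.5 over the 16 arrays (17 cytosolic and 5 mitochondrial), and the other 14 were close to that floor, where the log2 scale may compress differences in mRNA. No detection call was used. In tissue RNA, fewer cells of a type and less RNA per cell cannot be told apart. Replicates were separate mice, and the number of arrays limits the precision.

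As ATF4 is known to bind promoters of the family, the promoter windows of the members (250 bases before to 50 after each gene's start, RefSeq, build GRCm38.p6) were searched on both strands for TGATGNAAN, the core of the element that ATF4 and its C/EBP partners bind. A window was used for 30 of the 39 members, and no window was used for Cars, Hars, Lars, Nars, Rars, Vars, Wars, Hars2 and Pars2. A match was present in 5 of 16 cytosolic members (31.2%) and 0 of 14 mitochondrial members, beside 4.50% of all 27025 genes and 3.95% of all 32851 windows. The stretches below run from 60 bases before to 50 after the gene's start, 5′ to 3′ on the strand of the gene. They are shown because these 5 are the members with a match, which stands in capitals, on either strand.
Aars, chr8:111033782-111033891, + strand: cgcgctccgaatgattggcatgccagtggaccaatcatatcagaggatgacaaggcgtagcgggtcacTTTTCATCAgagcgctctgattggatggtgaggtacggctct
Gars, chr6:55037941-55038050, + strand: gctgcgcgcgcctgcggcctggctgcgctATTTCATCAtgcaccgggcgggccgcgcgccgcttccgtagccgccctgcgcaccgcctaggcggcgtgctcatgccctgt
Iars, chr13:49682070-49682179, + strand: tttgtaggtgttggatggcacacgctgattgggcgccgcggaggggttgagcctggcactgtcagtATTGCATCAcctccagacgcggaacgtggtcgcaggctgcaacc
Tars, chr15:11399609-11399718, - strand: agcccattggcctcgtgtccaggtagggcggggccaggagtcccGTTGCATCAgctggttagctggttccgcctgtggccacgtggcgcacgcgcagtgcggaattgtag
Yars, chr4:129189843-129189952, + strand: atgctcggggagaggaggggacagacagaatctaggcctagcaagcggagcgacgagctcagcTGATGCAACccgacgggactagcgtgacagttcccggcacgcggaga
A further Aars match lay from -113 to -105, counted from the gene's start. Lars and Nars, which had no window, were not searched. A match describes the sequence and is no evidence of binding in this muscle.

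With ursolic acid, 2 of the 36 synthetase genes fell and 0 rose. They were Lars, the cytosolic leucyl enzyme, and Nars, the cytosolic asparaginyl enzyme. A gene is said to rise, fall or change where its limma p, 2-sided and unadjusted, was 0.025 or less, the threshold of the study's methods, while the adjusted p printed beside a gene is a Benjamini-Hochberg value over the whole array of 25697 probes. The share of members called was 5.56%, beside a background of 5.3% of all probes (2.72% lower and 2.58% higher). At an adjusted p of 0.1 or less, 0 members were called (background 0.00778%), the lowest being 0.195 for Lars, and at an unadjusted p under 0.05 the count was 4, beside 9.02% of all probes. The study had named Lars, Nars, Mars1 and Sars on these arrays, so the calls of Lars and Nars are not independent evidence of a direction, and without the 4 named genes 0 of 32 members were called. Among the 22 brighter members 2 were called (9.09%), beside 12.2% of all probes with a mean of at least 8.5. The count was 4 without control mouse 5, when Mars1 and Aars2 were called as well.

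With tomatidine, 4 of the 36 fell and 0 rose. These were Lars and Nars again, the scaffold gene Aimp1 and the mitochondrial alanyl enzyme Aars2. The share called was 11.1%, beside a background of 5.37% (3.12% lower and 2.25% higher), and among the brighter members 3 of 22 were called (13.6%), beside 13% of all bright probes. Adjusted p was 0.1 or less for 0 members (background 0.0973%), the lowest being 0.124 for Lars, and 5 members had an unadjusted p under 0.05, beside 9.12% of all probes. Without the 4 genes the study had named, 2 of 32 were called, Aimp1 and Aars2. The count was 6 without control mouse 3, when Cars, Sars2 and Vars were called below 0 and Aars2 was not, and 6 without tomatidine mouse 1, when Rars2 and Sars2 were called below 0, Gars above 0 and Aars2 was not. Both comparisons use the same 5 control mice, so a gene that fell in both is not a repeated observation.

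**Figure D1:**
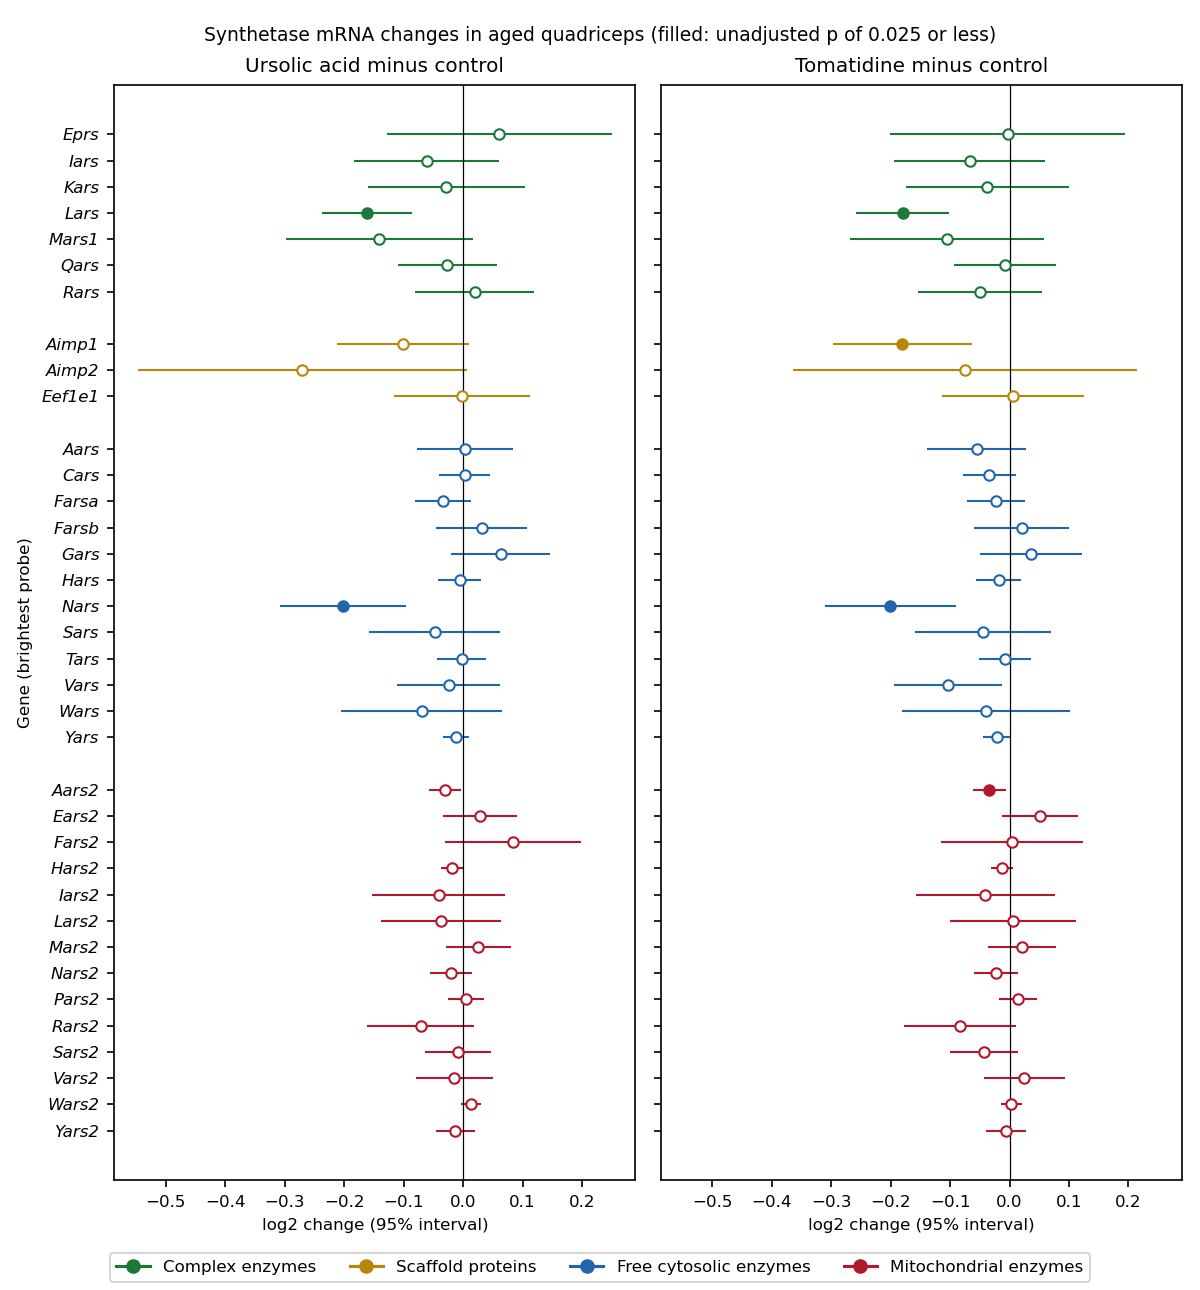
Log2 change of the brightest probe of each of the 36 synthetase genes with its 95% interval, for ursolic acid minus control (left) and tomatidine minus control (right), by role. Filled points passed the unadjusted threshold: Lars and Nars with ursolic acid, and Lars, Nars, Aimp1 and Aars2 with tomatidine, all below 0.

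Among the enzymes of the multisynthetase complex, Lars (probe ILMN_2899591) stood out in both diets. Its log2 signal in ursolic acid mice was 9.08 at the lowest, 9.18 at the median and 9.29 at the highest. In tomatidine mice 1 to 5 it was 9.20, 9.19, 9.08, 9.14 and 9.19, against 9.31, 9.28, 9.40, 9.40 and 9.32 in control mice 1 to 5. Every tomatidine mouse lay below every control mouse, whereas the highest ursolic acid mouse reached the lowest control mouse. Among all probes, 0.883% were lower with tomatidine without overlap, and Lars was the one member of the 36 that did so on its brightest probe. Lars fell by 0.16 on the log2 scale (SE 0.035, adjusted p = 0.195) with ursolic acid, so that the signal fell by 10.6%, and fell by 0.18 on the log2 scale (SE 0.037, adjusted p = 0.124) with tomatidine, so that the signal fell by 11.7%. Both calls held in every alternative run, with adjusted p from 0.137 to 0.368 for ursolic acid and from 0.0781 to 0.279 for tomatidine when each mouse was left out in turn.

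Mars1, the methionyl enzyme of the complex, gave different calls on its probes. On the brighter probe the signal in ursolic acid mice was 9.31 at the lowest, 9.46 at the median and 9.58 at the highest, in tomatidine mice 9.40, 9.54, 9.47, 9.41 and 9.56, and in control mice 9.70, 9.74, 9.70, 9.45 and 9.31. The control mice were split, with mice 4 and 5 as low as the treated mice, and the changes of -0.14 (SE 0.074, adjusted p = 0.611) with ursolic acid and -0.11 (SE 0.077, adjusted p = 0.742) with tomatidine did not pass. The dimmer Mars1 probe (mean 8.41) was at 8.29 at the lowest, 8.38 at the median and 8.40 at the highest in ursolic acid mice and at 8.48, 8.47, 8.46, 8.41 and 8.52 in control mice, with no overlap. It fell by 0.10 on the log2 scale (SE 0.025, adjusted p = 0.249) with ursolic acid, while with tomatidine its change was -0.057 (SE 0.027, adjusted p = 0.543). Among all probes, 0.537% were lower with ursolic acid without overlap.

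Eprs, which encodes the joined glutamyl and prolyl enzyme, was the 1 member of the family with a probe that rose with both compounds. That probe was dim (mean 8.40), and its signal was 8.39 at the lowest, 8.43 at the median and 8.48 at the highest in ursolic acid mice, 8.41, 8.31, 8.45, 8.52 and 8.48 in tomatidine mice and 8.37, 8.25, 8.33, 8.40 and 8.30 in control mice. Its changes were 0.10 (SE 0.032, adjusted p = 0.341) with ursolic acid and 0.10 (SE 0.034, adjusted p = 0.353) with tomatidine, with the groups overlapping. The brighter Eprs probe did not pass, at 0.061 (SE 0.089, adjusted p = 0.895) with ursolic acid and -0.0030 (SE 0.093, adjusted p = 0.998) with tomatidine. On the dimmer probe the ursolic acid call held in every alternative run (adjusted p from 0.265 to 0.504 with single mice left out). The tomatidine call on the dimmer probe was lost without control mouse 2 (adjusted p = 0.503) and without tomatidine mouse 4 (adjusted p = 0.554), in a fit of tomatidine and control mice alone (adjusted p = 0.55), and with the methods' t-test of equal or unequal variances (adjusted p = 0.652 and 0.744).

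Iars, the isoleucyl enzyme, was at 10.01 on its brightest probe and passed in neither diet there, with -0.061 (SE 0.057, adjusted p = 0.829) for ursolic acid and -0.067 (SE 0.060, adjusted p = 0.805) for tomatidine. Its other bright probe gave -0.078 and -0.055, and its dimmest probe, at the floor of the arrays (mean 7.96), passed with tomatidine at 0.029 (SE 0.011, adjusted p = 0.446), a call that was lost without any of 10 of the 16 mice and with the methods' t-test (adjusted p = 0.649). The remaining dim probe gave 0.0090 with ursolic acid and 0.021 with tomatidine. Qars, the glutaminyl enzyme, had the brightest signal of the complex enzymes (10.88) and gave -0.026 (SE 0.039, adjusted p = 0.898) with ursolic acid and -0.0074 (SE 0.040, adjusted p = 0.982) with tomatidine. Kars, the lysyl enzyme, and Rars, the arginyl enzyme, lay between -0.028 (Kars, ursolic acid) and 0.020 (Rars, ursolic acid), with -0.037 and -0.050 for tomatidine. The median change of the 7 measured complex enzymes was -0.028 with ursolic acid and -0.050 with tomatidine.

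**Figure D2:**
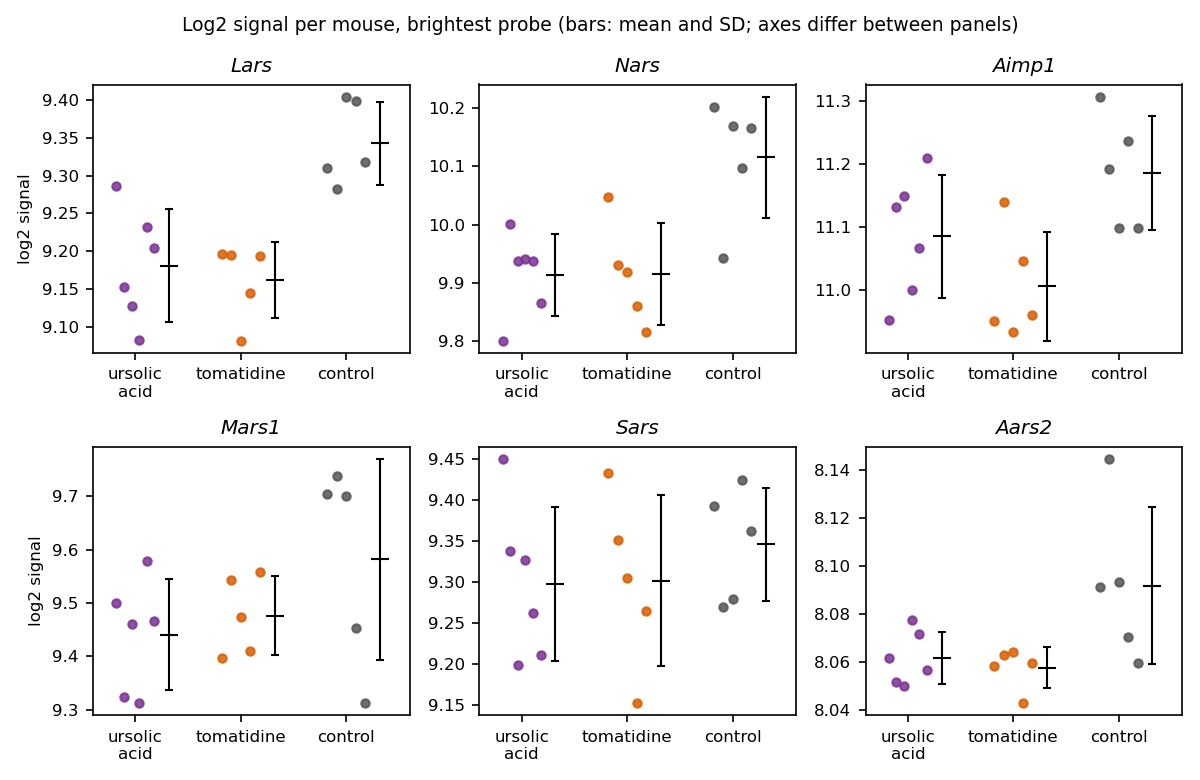
Log2 signal of the brightest probe in each mouse for Lars, Nars, Aimp1, Mars1, Sars and Aars2, with ursolic acid (n = 6), tomatidine (n = 5) and control (n = 5) mice from left to right. Black bars give the mean and SD. The tomatidine mice lie wholly below the control mice for Lars, at 9.20 or less against 9.28 or more, and the groups overlap in the other panels.

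The scaffold proteins had the most variable member, Aimp2, which is described after Aimp1. Aimp1 (probe ILMN_2613399), which binds the enzymes and whose cleaved form is a secreted cytokine, was at 10.95 at the lowest, 11.10 at the median and 11.21 at the highest in ursolic acid mice. In tomatidine mice it was 10.95, 11.14, 10.93, 11.05 and 10.96, against 11.31, 11.19, 11.10, 11.24 and 11.10 in control mice. Of the 5 tomatidine mice, 4 lay below every control mouse and mouse 2 lay within the control range. Aimp1 fell by 0.18 on the log2 scale (SE 0.054, adjusted p = 0.31) with tomatidine, so that the signal fell by 11.7%, and with ursolic acid its change was -0.10 (SE 0.052, adjusted p = 0.605). The tomatidine call held in every alternative run, with adjusted p from 0.199 to 0.544 when each mouse was left out in turn.

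Aimp2, the scaffold protein at the core of the complex, averaged 11.18 ± 0.21 in ursolic acid mice, 11.38 ± 0.29 in tomatidine mice and 11.45 ± 0.18 in control mice (SD, n = 6, 5 and 5). Single mice ranged widely, from 10.79 in ursolic acid mouse 5 to 11.85 in tomatidine mouse 4, and the SD within diets (0.23) was the largest of the 36 members. Its change was -0.27 (SE 0.13, adjusted p = 0.573) with ursolic acid, the largest in size of the 36 members and yet short of the threshold, and -0.075 (SE 0.14, adjusted p = 0.928) with tomatidine. Without tomatidine mouse 4, the highest of all mice, it was called with ursolic acid (adjusted p = 0.437). The change stayed at -0.27, and only the shared estimate of spread fell (SE 0.10). A second probe gave -0.24 (SE 0.12, adjusted p = 0.6) and -0.15 (SE 0.13, adjusted p = 0.799). Eef1e1, the smallest scaffold protein, gave -0.0013 (SE 0.054, adjusted p = 0.997) with ursolic acid and 0.0053 (SE 0.056, adjusted p = 0.992) with tomatidine.

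Of the 12 free cytosolic enzymes, Nars (probe ILMN_1227163) fell in both diets and the others did not pass on their brightest probes. The share called was 8.33% in each diet, beside 5.3% (ursolic acid) and 5.37% (tomatidine) of all probes. Nars was at 9.80 at the lowest, 9.94 at the median and 10.002 at the highest in ursolic acid mice. In tomatidine mice it was 10.05, 9.93, 9.92, 9.86 and 9.82, against 10.20, 9.94, 10.17, 10.10 and 10.17 in control mice. Control mouse 2 was the exception among the controls, at the level of the treated mice, and the other control mice lay above every treated mouse. Nars fell by 0.20 on the log2 scale (SE 0.050, adjusted p = 0.236) with ursolic acid and fell by 0.20 on the log2 scale (SE 0.052, adjusted p = 0.236) with tomatidine, so that the signal fell by 13.1% and by 13.0%. Both calls held in every alternative run, with adjusted p from 0.183 to 0.454 for ursolic acid and from 0.0793 to 0.463 for tomatidine when each mouse was left out in turn.

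Sars, the seryl enzyme, was at 9.20 at the lowest, 9.29 at the median and 9.45 at the highest in ursolic acid mice, at 9.43, 9.35, 9.31, 9.15 and 9.26 in tomatidine mice and at 9.39, 9.27, 9.28, 9.42 and 9.36 in control mice. The 3 groups overlapped over most of their range, and the changes were -0.048 (SE 0.051, adjusted p = 0.858) with ursolic acid and -0.044 (SE 0.054, adjusted p = 0.874) with tomatidine. On a dimmer probe (mean 8.40) Sars fell by 0.11 on the log2 scale (SE 0.032, adjusted p = 0.271) with tomatidine, and with ursolic acid it gave -0.052 (SE 0.031, adjusted p = 0.668). The tomatidine call on this probe was lost when tomatidine mice 3 and 4 were left out together, where its change was -0.086 (adjusted p = 0.681). These mice had the highest macrophage means of all mice (9.14 and 9.16), and leaving them out also made the group smaller. Why the call was lost was not tested.

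Gars, the glycyl enzyme of both compartments, had the brightest signal of the family (mean 12.37), and did not pass, at 0.063 (SE 0.039, adjusted p = 0.685) with ursolic acid and 0.036 (SE 0.040, adjusted p = 0.864) with tomatidine. Without tomatidine mouse 1, whose signal of 12.19 was the lowest of its group, Gars rose by 0.080 with tomatidine (adjusted p = 0.243). In that fit Gars was also called with ursolic acid (adjusted p = 0.416). Its change there stayed at 0.063, and only the shared estimate of spread fell (SE 0.023). Vars, the valyl enzyme, gave -0.10 (SE 0.043, adjusted p = 0.486) with tomatidine, an unadjusted p of 0.0282, and -0.024 with ursolic acid. Its dimmer probes gave -0.0098 and -0.011 with tomatidine, and 0.038 and 0.011 with ursolic acid. Yars, the tyrosyl enzyme, and Farsa, a subunit of the phenylalanyl enzyme, were close to the floor (means 7.99 and 8.05). Yars gave -0.022 (SE 0.010, adjusted p = 0.553) with tomatidine and -0.012 with ursolic acid, and Farsa gave -0.033 (SE 0.022, adjusted p = 0.723) with ursolic acid and -0.023 with tomatidine.

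The remaining free enzymes, Aars, Cars, Farsb, Hars, Tars and Wars (alanyl, cysteinyl, phenylalanyl subunit, histidyl, threonyl and tryptophanyl), ranged from -0.070 (Wars) to 0.031 (Farsb) with ursolic acid and from -0.056 (Aars) to 0.021 (Farsb) with tomatidine. Aars was -0.056 (SE 0.039, adjusted p = 0.731) with tomatidine, and without tomatidine mouse 3 it fell by 0.095 (adjusted p = 0.402). For the 5 genes with a promoter match, the changes with ursolic acid and with tomatidine were 0.0032 and -0.056 for Aars, 0.063 and 0.036 for Gars, -0.061 and -0.067 for Iars, -0.0023 and -0.0078 for Tars, and -0.012 and -0.022 for Yars. The median change of the 12 free enzymes was -0.0087 with ursolic acid and -0.029 with tomatidine.

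Of the 14 mitochondrial enzymes, 0 changed with ursolic acid and 1, Aars2, fell with tomatidine. These shares were 0% and 7.14%, beside 5.3% and 5.37% of all probes. Aars2 (probe ILMN_2876302) was close to the floor, at 8.05 at the lowest, 8.06 at the median and 8.08 at the highest in ursolic acid mice. In tomatidine mice it was 8.06, 8.06, 8.06, 8.04 and 8.06, against 8.09, 8.14, 8.09, 8.07 and 8.06 in control mice. Control mouse 2 was high and the other control mice lay closer to the treated mice. Aars2 fell by 0.034 on the log2 scale (SE 0.013, adjusted p = 0.437) with tomatidine, and with ursolic acid its change was -0.030 (SE 0.013, adjusted p = 0.486). The tomatidine call was lost without control mouse 1, 2 or 3 and without any of the tomatidine mice (adjusted p from 0.395 to 0.627), with the methods' t-test of equal or unequal variances (adjusted p = 0.67 and 0.761), with an intensity trend and robust estimates (0.575) and in a fit of tomatidine and control mice alone (0.619). With ursolic acid a call was made without control mouse 4, control mouse 5 or ursolic acid mouse 4 (adjusted p from 0.312 to 0.55) and with the slow-fibre mean in the fit (0.318).

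Rars2, the mitochondrial arginyl enzyme, fell on one of its probes with both compounds. On that probe (mean 8.84) its signal was 8.73 at the lowest, 8.79 at the median and 8.92 at the highest in ursolic acid mice, 8.87, 8.81, 8.78, 8.77 and 8.82 in tomatidine mice and 8.89, 8.98, 8.94, 8.87 and 8.90 in control mice. Every tomatidine mouse lay below every control mouse, by a margin smaller than rounding for mouse 1. Of all probes, 0.883% were lower with tomatidine without overlap, and on the brightest Rars2 probe the groups overlapped. It fell by 0.10 on the log2 scale (SE 0.033, adjusted p = 0.341) with ursolic acid and fell by 0.11 on the log2 scale (SE 0.035, adjusted p = 0.353) with tomatidine, and the tomatidine call was lost without tomatidine mice 3 and 4 (adjusted p = 0.734). The brightest probe (mean 9.12) gave -0.071 (SE 0.042, adjusted p = 0.666) and -0.084 (SE 0.044, adjusted p = 0.599), another gave -0.012 and -0.068, and a probe at the floor gave 0.0044 and 0.014.

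Fars2, the mitochondrial phenylalanyl enzyme, was the brightest of this set (mean 10.59) and gave 0.084 (SE 0.054, adjusted p = 0.705) with ursolic acid and 0.0043 (SE 0.056, adjusted p = 0.994) with tomatidine. Hars2, the mitochondrial histidyl enzyme, gave -0.019 (SE 0.0083, adjusted p = 0.519) with ursolic acid at a mean of 7.98, and -0.013 with tomatidine. Ears2, the mitochondrial glutamyl enzyme, gave 0.051 (SE 0.030, adjusted p = 0.658) with tomatidine and 0.028 with ursolic acid. Wars2, the mitochondrial tryptophanyl enzyme, was 0.014 (SE 0.0079, adjusted p = 0.654) with ursolic acid and 0.0025 with tomatidine, and its other probes lay between -0.0015 and 0.0073. The other 8, Iars2, Lars2, Mars2, Nars2, Pars2, Sars2, Vars2 and Yars2, ranged from -0.041 (Iars2) to 0.025 (Mars2) with ursolic acid and from -0.043 (Sars2) to 0.025 (Vars2) with tomatidine.

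Cytosolic and mitochondrial members are set side by side here. With ursolic acid the median log2 change was -0.025 for cytosolic members, of which 16 of 22 lay below 0, and -0.014 for mitochondrial members, of which 9 of 14 lay below 0. With tomatidine it was -0.038 for cytosolic members, with 19 of 22 below 0, and -0.0019 for mitochondrial members, with 7 of 14 below 0. Over all probes the median was -4.2e-05 with ursolic acid and -0.00059 with tomatidine, and 12876 and 13153 of 25697 lay below 0. Mitochondrial probes were dimmer, with 5 of 14 at a mean of at least 8.5 beside 17 of 22, so the classes differ in signal. Within those bright members the medians were -0.028 cytosolic and -0.037 mitochondrial with ursolic acid, and -0.050 cytosolic and 0.0043 mitochondrial with tomatidine. Over all probes with a mean of at least 8.5 the median was -0.0014 with ursolic acid and -0.0078 with tomatidine. The difference between classes was not tested.

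The level of the cytosolic class in each mouse, taken as the median over its 22 members of the deviation from the 16-array mean, lay between -0.024 and 0.015 in ursolic acid mice with a median of -0.0055. In tomatidine mice 1 to 5 it was -0.053, -0.0085, -0.022, -0.0073 and -0.0029, against 0.067, -0.019, -0.020, 0.032 and 0.036 in control mice. All 5 tomatidine mice lay below 0, whereas control mice 1, 4 and 5 lay above every treated mouse and control mice 2 and 3 among them. For the mitochondrial class the values ran from -0.0027 to 0.0045 in ursolic acid mice, from -0.013 to 0.014 in tomatidine mice and from -0.0086 to 0.014 in control mice. Control mice 1 and 5 also had the lowest slow-fibre signal of the controls (mean log2 of 9 slow-fibre genes 10.26 and 10.49, beside 11.22 to 11.47 in the other 3). Tomatidine mouse 4 had a slow-fibre mean of 10.50 with a cytosolic level of -0.0073, and control mouse 4 had 11.22 with 0.032. The part of fibre type in the cytosolic level was not tested, and the calls of Lars and Nars held when the slow-fibre mean entered the fit, an alternative added after the data were seen.

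**Figure D3:**
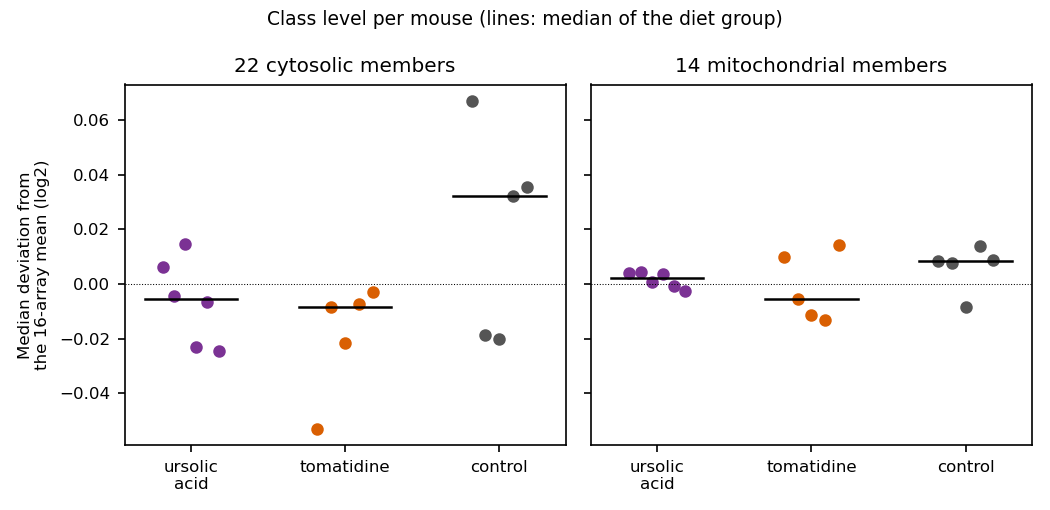
Median deviation from the 16-array mean (log2) over the 22 cytosolic (left) and 14 mitochondrial (right) members, 1 point per mouse, for ursolic acid, tomatidine and control mice from left to right. Lines give the median of each group. For the cytosolic class 3 control mice lie between 0.032 and 0.067, above all treated mice, and the mitochondrial values lie between -0.013 and 0.014 in all groups.

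Calls differed between probes of the same gene in several cases, although Mars1 with ursolic acid and Sars with tomatidine lay below 0 on each probe. The 36 members had 58 probes, 14 members had more than 1, and 29 probes had a mean under 8.5. With ursolic acid 3 members had another probe that passed while the brightest did not, namely Eprs (above 0), Mars1 and Rars2 (below 0), and with tomatidine there were 4, namely Eprs and Iars (above 0) and Sars and Rars2 (below 0). Of the 58 probes, 8.62% passed with ursolic acid, 1 above 0 and 4 below, and 13.8% with tomatidine, 2 above 0 and 6 below, beside 5.3% and 5.37% of all probes. The 58 were brighter than the array, where 76.8% of probes had a mean under 8.5. Of all probes with a mean of at least 8.5, 12.2% and 13% were called. On the mean over a gene's probes, Mars1 gained a call with ursolic acid, at -0.12 (adjusted p = 0.308). Rars2 gained one there with tomatidine, at -0.061 (adjusted p = 0.328). The members called were then 3 with ursolic acid and 5 with tomatidine, with no other gain. Which transcripts each probe detects was not analysed here.

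**Figure D4:**
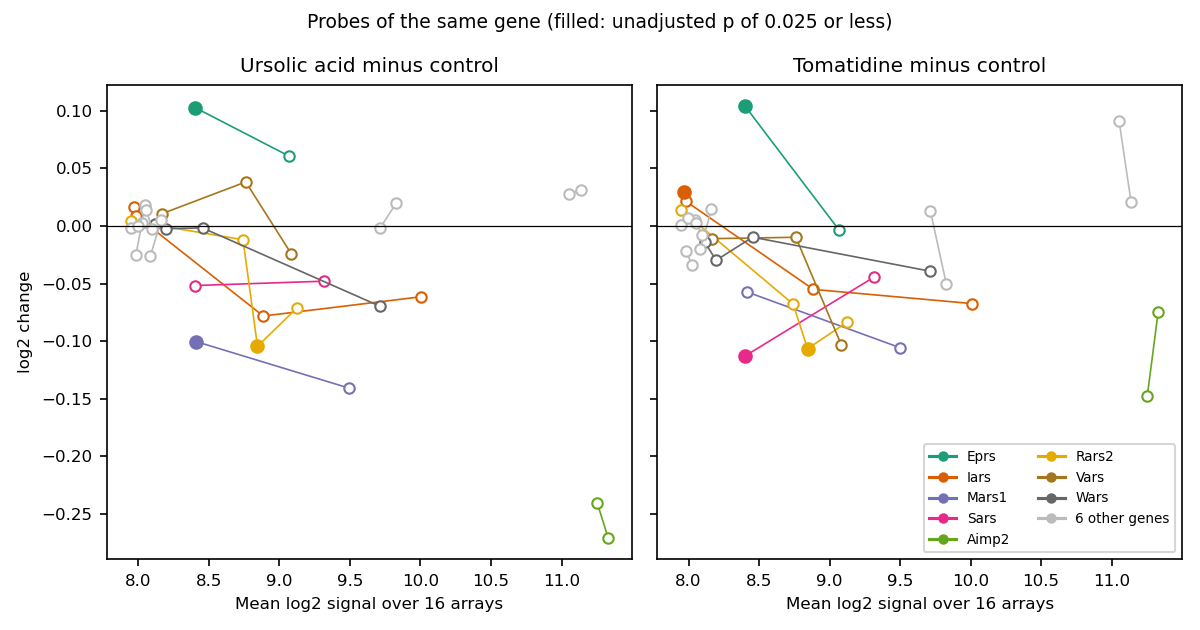
Log2 change (vertical) against mean log2 signal over 16 arrays (horizontal) for each probe of the 14 members with more than 1 probe, for ursolic acid minus control (left) and tomatidine minus control (right). Lines join probes of a gene, filled points passed the unadjusted threshold, and the dimmer Eprs probe lies at 0.10 in both panels while the brighter one does not pass.

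Ursolic acid set against tomatidine gave 0 called members of 36, beside a background of 2.94% of all probes, and 0 with an unadjusted p under 0.05, beside 5.77% of all probes. The difference between the compounds was 0.019 for Lars (95% interval -0.057 to 0.094), -0.00069 for Nars (-0.11 to 0.10) and 0.079 for Aimp1 (-0.032 to 0.19). For Mars1 it was -0.035 (-0.19 to 0.12), for Sars -0.0035 (-0.11 to 0.11) and for Aars2 0.0041 (-0.023 to 0.031). The smallest unadjusted p was that of Vars (0.0709, difference 0.079, adjusted p = 0.865), and the next smallest were those of Cars (difference 0.037) and Aars (difference 0.059). Rars had 0.070, Aimp2 -0.20 and Fars2 0.080 (adjusted p = 0.888, 0.885 and 0.89). These intervals include 0 and also differences as large as most of the changes above, and a p that misses the threshold does not show that the compounds act alike. Without tomatidine mouse 3, whose Aars signal was the highest of its group, 1 member was called, Aars, at 0.098 (SE 0.028, adjusted p = 0.989) with ursolic acid minus tomatidine.

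Among other genes of tRNA charging, 12 of 17 were measured. With ursolic acid 1 rose, Qrsl1, a subunit of the amidotransferase that makes mitochondrial glutaminyl-tRNA in place of a glutaminyl synthetase, at 0.14 (SE 0.050, adjusted p = 0.416). With tomatidine 1 rose, Gatb, another subunit of that enzyme, at 0.12 (SE 0.036, adjusted p = 0.287), and 1 fell, the tRNA methyltransferase Trmt1, at -0.10 (SE 0.031, adjusted p = 0.315). The call of Trmt1 was lost with the methods' t-test of equal or unequal variances (adjusted p = 0.642 and 0.742). Qrsl1 was 0.086 with tomatidine and Gatb 0.065 with ursolic acid, neither of which passed. The median over the 12 was -0.026 with ursolic acid and -0.015 with tomatidine. Called shares were 8.33% with ursolic acid and 16.7% with tomatidine, beside 5.3% and 5.37% of all probes. Of the 12, 7 had a mean of at least 8.5, and of all such bright probes 12.2% and 13% were called.

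Of the elongation factors, which use the charged tRNA, 13 of 13 were measured, with medians of 0.015 with ursolic acid and -0.0027 with tomatidine. Called shares were 7.69% with ursolic acid and 23.1% with tomatidine, beside 5.3% and 5.37% of all probes. Most of the 13 were bright, and of all bright probes 12.2% and 13% were called. Tufm, the mitochondrial factor that carries charged tRNA to the ribosome, was the 1 gene that rose, in both diets. It averaged 12.46 ± 0.082 in ursolic acid mice, 12.53 ± 0.086 in tomatidine mice and 12.31 ± 0.063 in control mice (SD, n = 6, 5 and 5), a change of 0.15 (SE 0.045, adjusted p = 0.327) with ursolic acid and of 0.22 (SE 0.047, adjusted p = 0.137) with tomatidine, and both calls held in every alternative run. With tomatidine, Eef1d, a subunit of the cytosolic exchange factor, and Eef2k, the kinase that inhibits elongation factor 2, fell at -0.079 (SE 0.029, adjusted p = 0.412) and -0.19 (SE 0.067, adjusted p = 0.41). The call of Eef1d was lost in 11 alternatives, and its change was -0.016 on the mean over its probes (adjusted p = 0.706).

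Targets of ATF4 outside the synthetase family were listed for 28 genes and measured for 26, with medians of -0.012 with ursolic acid and 0.011 with tomatidine. Called shares were 7.69% with ursolic acid and 3.85% with tomatidine, beside 5.3% and 5.37% of all probes. With ursolic acid 1 fell, Eif4ebp1, which encodes the translation inhibitor 4E-BP1, at -0.44 (SE 0.087, adjusted p = 0.171), and 1 rose, the transcription factor Atf5, at 0.25 (SE 0.091, adjusted p = 0.407). With tomatidine 1 fell, the glycine transporter Slc6a9, at -0.10 (SE 0.035, adjusted p = 0.376). Eif4ebp1 was -0.20 (SE 0.090, adjusted p = 0.529) with tomatidine. The study had named Eif4ebp1, Slc6a9 and Slc38a2 on these arrays, so these calls are not independent evidence of a direction. Atf4 itself, on its named probe, was -0.068 (SE 0.066, adjusted p = 0.837) with ursolic acid and -0.0011 (SE 0.069, adjusted p = 0.999) with tomatidine, and Asns, the asparagine synthetase gene, was -0.034 and 0.084. A promoter match to the element was present in 8 of the 25 targets with a window, beside the 4.50% of all genes given above.

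Myofibre markers were bright in every mouse. The mean log2 signal of 10 myofibre genes was 14.40 to 14.48 in ursolic acid mice, 14.43 to 14.54 in tomatidine mice and 14.36 to 14.59 in control mice, and 2 of the 10 fell with ursolic acid. Slow-fibre genes averaged 11.18 to 11.67 in ursolic acid mice, 10.50 to 11.37 in tomatidine mice and 10.26 to 11.47 in control mice, with 8 of 9 above 0 in each diet, a median change of 0.58 with ursolic acid and 0.17 with tomatidine, and 1 of 9 called higher in each diet. Of 9 measured adipocyte genes 2 rose with tomatidine (9.34 to 9.66, against 9.29 to 9.63 in control mice), with Plin1, Fabp4 and Retn at the floor. Of 7 endothelial genes 1 rose with ursolic acid (9.01 to 9.25, against 8.95 to 9.15 in control mice). Macrophage and fibroblast genes had 0 called against control, and tomatidine mouse 4 had the highest mean of both lists (9.16 and 10.10). Of 3 measured Schwann cell genes and 3 erythroid genes, 0 were called against control. Of all probes, 5.3% were called with ursolic acid and 5.37% with tomatidine. Among probes with a mean of at least 8.5, which include all 10 myofibre genes, the shares were 12.2% and 13%. The part of these cell types in the synthetase values was not tested.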

How the data were processed

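Quadriceps RNA of 16 mice was hybridised to Illumina Mouse Ref-8 arrays, 1 colour and 1 array per mouse, and the authors extracted signals with BeadStudio and deposited log2 values after normalization. How background was corrected, how arrays were normalized, and slides and scan dates were not given in these sources. Values were used as deposited. Of 25697 probes, 1719 had no gene symbol. The probe with the highest mean stood for a gene, and other probes were tested separately. The linear model (limma 3.58.1, R 4.3.3) had 3 group means and 13 residual degrees of freedom, and was tested on simulated data. Members, lists and tests were chosen with earlier results of these data known. Genes named are those called, those the study named, and in each role the 3 smallest p and the brightest. Probe choice, groups fitted, variance model, array weights, normalization, centring, dim probes, the methods' t-test, mouse number and single mice were varied.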

Additional observations from a re-analysis of the deposited data

Results flagged for a closer look

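Of 108 groups of mice (36 members in 3 diets), 9 held a mouse far from the rest of its group by Dixon's criterion, where chance flags about 1 in 20 groups, or 5.4 here. Tomatidine mouse 4 was lowest of its group for Tars (8.047), Aars2 (8.043) and Yars2 (7.924), all probes near the floor of the arrays. Tomatidine mouse 3 was highest for Aars (10.989, the next mouse 10.82) and tomatidine mouse 1 lowest for Gars (12.195, the next mouse 12.39). Ursolic acid mouse 5 was lowest for Aimp2 (10.794, the next mouse 11.17) and ursolic acid mouse 2 highest for Farsb (11.217). Control mouse 1 was highest for Wars (10.085, the next mouse 9.73) and control mouse 3 lowest for Wars2 (8.037).

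Among the called results, Eif4ebp1 also passed the unadjusted threshold between the compounds, as did 2.94% of all probes. Its difference was -0.237 (ursolic acid minus tomatidine, 95% interval -0.42 to -0.052, limma, adjusted p = 0.78). The call was lost when tomatidine mice 1 and 3 or mice 1, 4 and 6 of ursolic acid were each left out (adjusted p from 0.65 to 0.989).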

How the results depend on the processing

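The calls of Lars and Nars in both diets and of Aimp1 with tomatidine held in every alternative run. So did those of the dimmer Mars1 probe, the dimmer Eprs probe (above 0) and Eif4ebp1 with ursolic acid. Those of Tufm in both diets and Gatb with tomatidine held as well. Of the 24 results called in the main fit and followed here, 0 reversed. Changes named without a call were not part of this count. When each mouse was left out in turn, the count of called members ran from 2 to 4 with ursolic acid, 3 to 6 with tomatidine and 0 to 1 between the compounds. The medians ran from -0.041 to -0.013 (ursolic acid), -0.057 to -0.029 (tomatidine) and 0.0060 to 0.018 (between) for cytosolic members, and from -0.016 to -0.0055, -0.015 to 0.0025 and -0.0074 to 0.0044 for mitochondrial members. Restricted to probes of at least 8.5, the mitochondrial median with ursolic acid was -0.037, with fewer genes. Between the compounds 1 member was called after adding the slow-fibre mean to the fit (Vars) and 1 without tomatidine mice 3 and 4 (Aars), and without those mice the mitochondrial median was -0.012. Refitted on probes of at least 8.5 alone, 613, 663 and 197 probes were called, beside 726 (ursolic acid) and 776 (tomatidine) of the same probes in the fit of all probes and 1362, 1380 and 756 of all probes, and the methods' t-test with unequal variances called 870 with tomatidine. The causes were not tested.

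Deviations of same-numbered mice of different diets gave r from -0.24 to 0.32 (15 pairs, median -0.083, 4 over 0.1). Other pairs gave r from -0.43 to 0.52 (70 pairs, median 0.0054, 21 over 0.1). The 4 same-numbered pairs over 0.1 were all of tomatidine with ursolic acid mice (mice 1, 3, 4 and 5, at 0.32, 0.11, 0.22 and 0.18). The labels do not say whether the numbers pair mice, and so few correlations cannot decide it. With mouse number as a replicate block the counts of called members were 2, 4 and 0, with Vars called and Aars2 not called with tomatidine, and the dimmer Rars2 probe not called with ursolic acid (adjusted p = 0.552), nor were Qrsl1 (0.587) and Atf5 (0.587) with ursolic acid, Eef1d (0.48) with tomatidine or Eif4ebp1 between the compounds (0.868), and the cytosolic medians were -0.016, -0.038 and 0.013. With single mice left out, the call of Qrsl1 was lost for each of control mice 1, 4 and 5 and mice 2, 4 and 5 of ursolic acid (adjusted p from 0.509 to 0.6), that of Atf5 for control mice 1, 4 and 5 and mice 4 and 6 of ursolic acid (0.476 to 0.618), that of Eef1d for control mouse 1 and tomatidine mice 3 and 5 (0.578 to 0.635), that of Eef2k for control mice 1, 2 and 4 and tomatidine mice 2 and 4 (0.468 to 0.617), and that of Slc6a9 for control mouse 2 and tomatidine mice 1 and 4 (0.377 to 0.567). The methods' t-test of equal or unequal variances also ended the calls of Atf5 (0.535 and 0.607), Eef1d (0.643 and 0.742) and Eif4ebp1 between the compounds (0.866 and 0.959), the slow-fibre mean in the fit those of Qrsl1 (0.576) and Atf5 (0.464), and an intensity trend with robust estimates (0.712), quantile normalization (0.593) and probes of at least 8.5 alone (0.277) that of Eef1d. On the other side, calls were gained with ursolic acid by Farsa without control mouse 2 (0.456), Hars2 without control mouse 3 (0.45) and Fars2 in a fit of ursolic acid and control mice alone (0.421), and with tomatidine by Mars1 without control mouse 5 (0.359) and by Vars in 6 alternatives (0.399 to 0.489). Left out together, tomatidine mice 3 and 4 also ended the tomatidine calls of Trmt1 (0.742), Eef1d (0.731), Eef2k (0.776), Slc6a9 (0.673) and the dimmer Eprs probe (0.758). Small changes near the floor of the arrays, below a signal of 8.5, are limited by signal over background.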
